A study of Mus musculus with 23 samples.

Results

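Drug efflux transporters of the ATP-binding cassette (ABC) superfamily were followed in the ileum of WT and *Pxr*-/- mice with and without pregnenolone-16α-carbonitrile (PCN), a steroid that activates the rodent pregnane X receptor (PXR). The 8 genes considered were *Abcb1a*, *Abcb1b*, *Abcb4*, *Abcc1*, *Abcc2*, *Abcc3*, *Abcc4* and *Abcg2*, out of 17574 genes with a named probe in the deposited value table. Their probes were all those that carry one of these names in the scanner files, 14 in all, and 11 of the 14 were in the value table. Where a gene had several, the brightest probe (highest mean over all arrays) was taken first and the others were set beside it.

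Each of the 23 arrays held ileum RNA of 1 male mouse. The WT mice were C57BL/6J, and the *Pxr*-/- mice had been backcrossed on that background. The 4 groups were WT mice given corn oil alone (WT CONT, n = 6), WT mice given PCN in corn oil (WT PCN, n = 5), *Pxr*-/- mice given corn oil (*Pxr*-/- CONT, n = 6) and *Pxr*-/- mice given PCN in corn oil (*Pxr*-/- PCN, n = 6). PCN was injected into the peritoneum at 100 mg/kg once a day for 4 days, and the mice, fed according to the labels, were killed 6 h after the last dose, at zeitgeber time 6. The WT mice were bought at 6 weeks of age, whereas the *Pxr*-/- mice carry the null allele in every cell and came from a colony kept in house for 10 years. The age of the *Pxr*-/- mice is not given in the sources used here. Genotype, breeding origin and any difference in age therefore cannot be told apart. Mice of both genotypes had 2 weeks of acclimatization.

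ABC efflux pumps use ATP to move drugs, bile acids, conjugates or lipids across a membrane. In the small intestine, P-glycoprotein, MRP2 and BCRP sit on the apical, lumen-facing side of the enterocyte and return compounds to the gut contents, whereas MRP3 faces the blood. PXR is a nuclear receptor that binds DNA with RXR at paired AGGTCA-like motifs, and drug-metabolizing enzymes and P-glycoprotein are among its known targets. Rodents have 2 P-glycoprotein genes for drug efflux, *Abcb1a* and *Abcb1b*, next to *Abcb4*, which encodes the phosphatidylcholine floppase MDR2 of the bile canaliculus. The *Abcb* genes are close paralogues.

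Since the results turn on the *Abcb* probes, their sequences are shown first (array design annotation on mm9, chromosome 5, plus strand). The brightest and second *Abcb4* probes and the dim *Abcb1b* probe are given whole, and 30 of the 60 bases of the brightest *Abcb1a* and *Abcb1b* probes are given (bases 26 to 55 and 31 to 60). Capitals mark the longest run each shares, on either strand, with another of the brightest *Abcb* probes.
Abcb1a, brightest (chr5:8748075-8748134): gatccctaccacCTAAGTAagcagcaaggt
Abcb1b, brightest (chr5:8865925-8865984): tgactatctgaggtgCTAAGTAtttttaat
Abcb4, brightest (chr5:8959108-8959167): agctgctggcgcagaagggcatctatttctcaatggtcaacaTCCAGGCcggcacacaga
Abcb1b, not above background (chr5:8827445-8827707): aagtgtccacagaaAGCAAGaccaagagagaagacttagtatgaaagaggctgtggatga
Abcb4, not above background (chr5:8940956-8941015): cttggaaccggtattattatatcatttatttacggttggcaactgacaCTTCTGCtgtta

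The longest run shared by any pair of the 3 brightest *Abcb* probes was 7 bases, and over all 91 pairs of the 14 probes it was 9 bases. The 11 probes in the value table were well above local background on all 23 arrays, and none was saturated. The 3 probes outside the table were dim. The second *Abcb1b* probe had a median spot signal of 26 to 40 and was well above background on 0 of 23 arrays, and so was the second *Abcb4* probe, at 22 to 30. The third *Abcb4* probe, at 21.5 to 57, was well above background on 1 array, of WT CONT. *Abcb1b* and *Abcb4* are thus each reported here by a single bright probe. In the array annotation the dim second probe of each names the same RefSeq mRNA as the bright one. The probes of each gene therefore disagree on whether this mRNA is present, and which of them is right was not tested. Values given below for *Abcb1b* and *Abcb4* are those of the bright probes. Which exon or UTR a probe lies in was not analysed here.

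The share of spots well above background was 62.7% to 68.8% per array. The *Nr1i2* probe, which carries the name of the targeted gene (*Nr1i2* encodes PXR), ranged from 11.91 to 12.28 in WT CONT, 11.67 to 12.44 in WT PCN, 11.34 to 12.37 in *Pxr*-/- CONT and 11.47 to 11.99 in *Pxr*-/- PCN (log2 signal). Its mean was lower in *Pxr*-/- than in WT mice, 11.73 against 12.14 without PCN and 11.71 against 12.17 with it, but the ranges overlapped. It thus does not fully separate the genotypes, and whether it lies in the deleted part is not stated in the sources used here. *Cyp3a11*, a classical PXR target that encodes a drug-oxidizing enzyme, rose by 3.53 (limma adjusted p = 1.49e-06) with PCN in WT mice. It differed by -0.05 in *Pxr*-/- mice (limma adjusted p = 0.952), and the difference of 3.57 between both changes was called (limma adjusted p = 0.000818). Of 11 tested genes of a list of 13 PXR-responsive enzymes, 9 rose in WT and 1 rose in *Pxr*-/- mice, and the difference between genotypes was called for 5. The 1 gene, named after its values were seen, was *Cyp2c55* (1.58, limma adjusted p = 0.0484).

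By the brightest probes, P-glycoprotein transcripts were higher after PCN in both genotypes and lower in *Pxr*-/- than in WT mice. The other *Abcb1a* probe, given below, was not called for PCN in *Pxr*-/- mice or for genotype without PCN. *Abcb1b* rests on a single bright probe. The brightest *Abcb1a* probe had log2 signals of 15.41, 16.04, 16.12, 15.89 and 15.47 in the 5 WT PCN mice. In WT CONT the lowest, median and highest values were 14.09, 14.23 and 14.93. All 5 PCN values lay above all 6 controls, and *Abcb1a* rose by 1.48 on the log2 scale (SE 0.17, 2.79-fold, limma adjusted p = 2.28e-05). Here as elsewhere in whole tissue, a change in the number of cells of a type and a change in RNA per cell cannot be told apart.

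Without PXR, the same probe read 12.72, 12.75 and 13.50 (lowest, median, highest) in *Pxr*-/- CONT and 13.62, 14.06 and 14.23 in *Pxr*-/- PCN. Again the groups did not overlap. The rise was 1.06 (SE 0.16, 2.08-fold, limma adjusted p = 0.00116), which is 71.3% of the log2 change seen in WT. The difference between both changes was 0.43 with a 95% confidence interval of -0.06 to 0.91, and it did not pass the threshold (limma adjusted p = 1.00).

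The other *Abcb1a* probe (chr5:8733543-8733602) was far dimmer, with median spot signals of 60 to 281. In the array annotation it names other transcripts than the brightest probe and no RefSeq mRNA. The probes therefore need not report the same transcripts, and this second probe is not an equal second reading of the gene. It read 8.01, 7.73, 7.22, 7.88 and 8.19 in WT PCN, against 6.37, 6.66 and 6.92 (lowest, median, highest) in WT CONT. The rise of 1.14 (SE 0.15, limma adjusted p = 0.000122) passed the threshold. Its values in *Pxr*-/- mice were 5.86, 6.22 and 6.52 without and 6.53, 6.74 and 7.02 with PCN. These groups did not overlap either, but the change of 0.58 (SE 0.14, 1.498-fold, limma adjusted p = 0.0239) fell just short of the 1.5-fold limit and was not called. It was 51.2% of this probe's log2 change in WT. The difference between its changes was 0.56 (interval 0.13 to 0.98), not called (limma adjusted p = 0.977). The same share was 59.7% for *Abcb1b*, 73.2% for *Abcb4* and 51.5% for *Abcc2*, whose change in *Pxr*-/- mice was not called.

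The bright probe of *Abcb1b*, the second drug-transporting P-glycoprotein gene, gave log2 signals of 12.49, 13.27, 13.31, 13.01 and 12.40 in WT PCN. All lay above the WT CONT range of 11.07 to 11.91 (median 11.24). Its signal rose by 1.60 (SE 0.17, 3.02-fold, limma adjusted p = 1.40e-05). Values of 9.82, 9.94 and 10.57 in *Pxr*-/- mice without PCN stood against 10.74, 11.04 and 11.24 with it. The rise was 0.95 (SE 0.16, 1.94-fold, limma adjusted p = 0.00331), again with no overlap of the groups.

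The bright probe of *Abcb4*, the lipid floppase, read 14.36, 15.24, 15.30, 14.99 and 14.49 in WT PCN, against 13.11 to 13.93 (median 13.32) in WT CONT. It rose by 1.51 (SE 0.18, 2.85-fold, limma adjusted p = 4.60e-05). It went in *Pxr*-/- mice from 11.62, 11.80 and 12.52 to 12.62, 13.06 and 13.27 (lowest, median, highest), a rise of 1.11 (SE 0.17, 2.15-fold, limma adjusted p = 0.00144). The interval of the difference between both changes was 0.15 to 1.13 for *Abcb1b* and -0.12 to 0.93 for *Abcb4*, with adjusted p of 0.980 and 1.00 by limma.

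**Figure D1:**
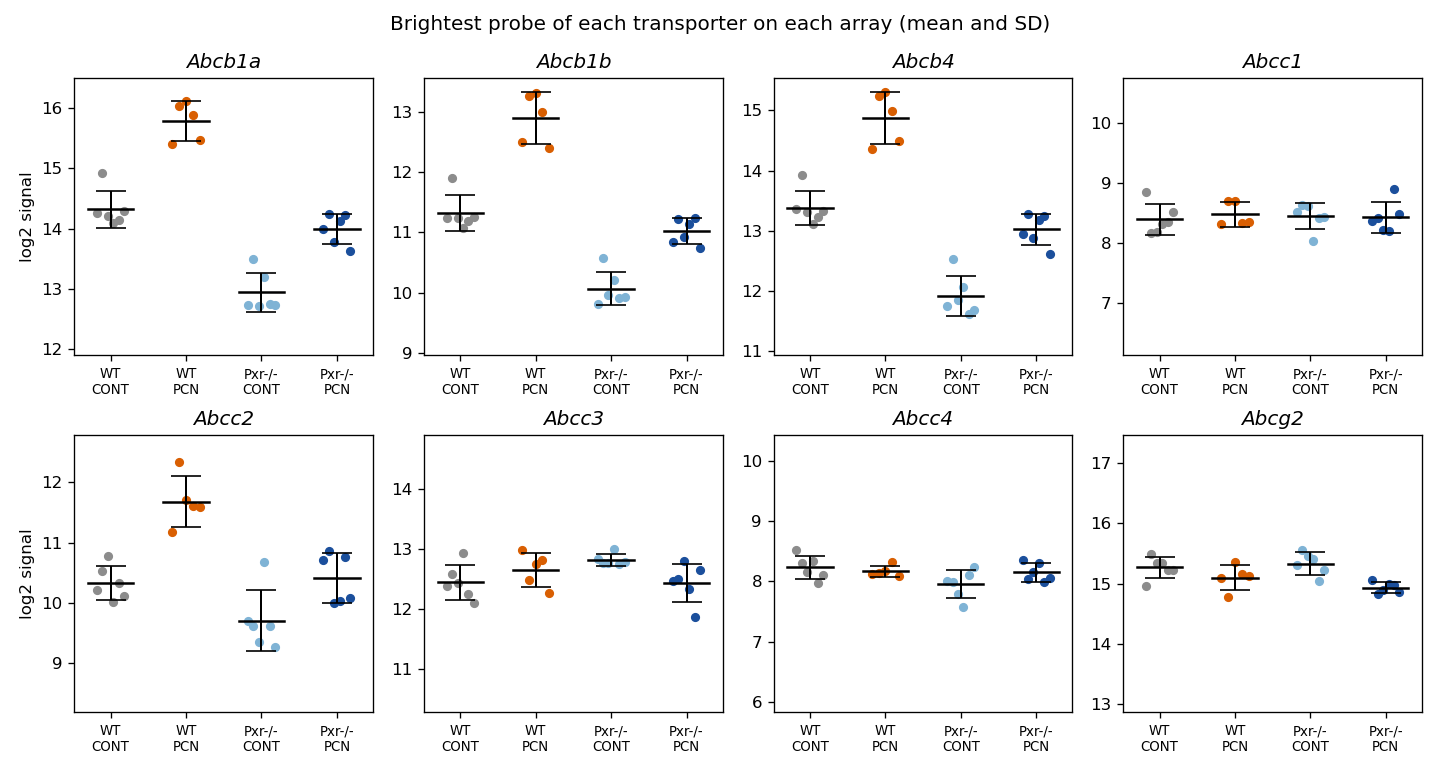
Log2 signal (y axis, each panel spanning the same number of log2 units) of the brightest probe of each of the 8 transporters in WT CONT, WT PCN, *Pxr*-/- CONT and *Pxr*-/- PCN; points are single mice, the long bar is the group mean and the whiskers its SD. For *Abcb1a*, *Abcb1b* and *Abcb4* the *Pxr*-/- CONT points lie lowest and the WT PCN points highest, with WT CONT and *Pxr*-/- PCN overlapping between them.

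The *Abcb* genes cannot be counted as separate observations. Over the 23 arrays, Pearson's r between their brightest probes was 0.995 to 0.998, and 0.955 to 0.972 after group and wash batch means were removed. The log2 difference between any pair of them varied by an SD of 0.08 to 0.11 only, while each probe ranged over 3.40 to 3.67. By contrast, the second *Abcb1a* probe had r = 0.88 with the brightest one over all arrays but 0.003 after group and wash batch were removed. All these correlations are descriptive and come from arrays that share slides, batches and the group differences themselves. Whether one transcript binds several of these probes was not tested, and counts are therefore also given without *Abcb1b* and *Abcb4*.

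**Figure D2:**
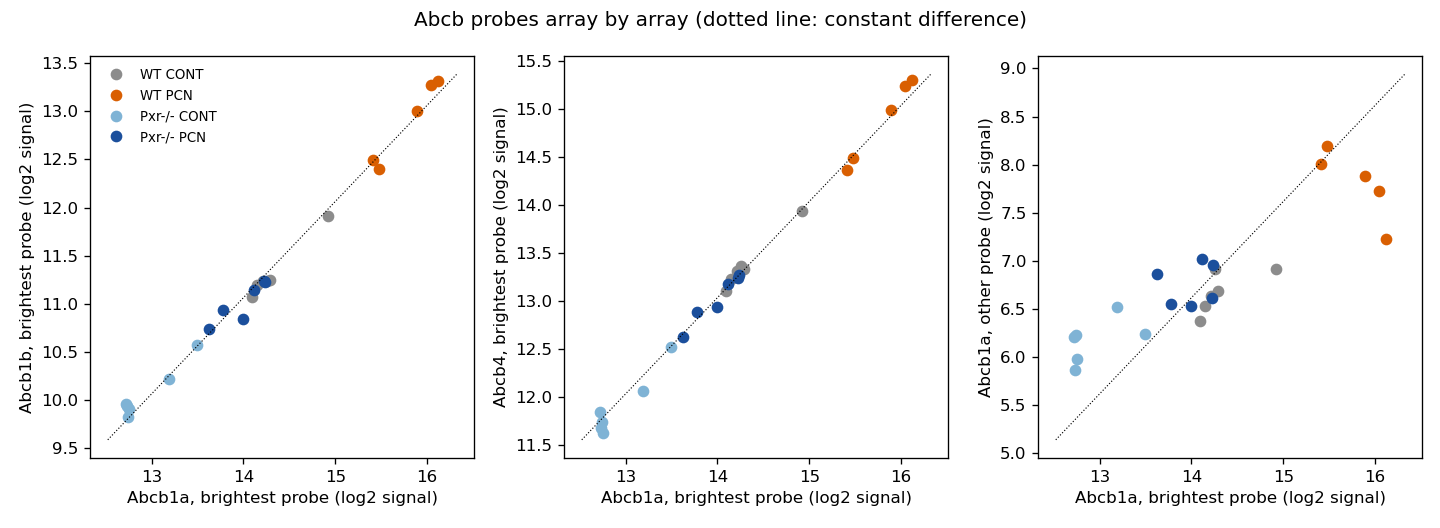
Log2 signal of the brightest *Abcb1b* probe, the brightest *Abcb4* probe and the second *Abcb1a* probe (y axes) against that of the brightest *Abcb1a* probe (x axis), 1 point per array coloured by group; the dotted line marks a constant difference. The first 2 panels follow the line (SD of the difference 0.10 and 0.08), whereas the second *Abcb1a* probe scatters around it (SD 0.58).

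*Abcc2* encodes MRP2, the apical pump for glucuronide and glutathione conjugates (probe at chr19:43912079-43912138). Its log2 signals were 11.17, 12.33, 11.70, 11.60 and 11.58 in WT PCN, all above the WT CONT values, which had a lowest, median and highest of 10.02, 10.27 and 10.77. It rose by 1.36 (SE 0.23, 2.57-fold, limma adjusted p = 0.00235). In *Pxr*-/- CONT the values were 9.27, 9.61 and 10.67, and in *Pxr*-/- PCN 9.99, 10.39 and 10.86. The groups overlapped through *Pxr*-/- CONT replicate 4 at 10.67, since the other controls reached no higher than 9.70. The difference of 0.70 (SE 0.22, 1.63-fold, limma adjusted p = 0.0766) was not called. Without replicate 4 it was 0.89 (limma adjusted p = 0.0164), and with the slide as a fixed term it was 0.85 (limma adjusted p = 0.0340), both called. Leaving out any of the other 22 arrays did not give a call (limma adjusted p up to 0.182). Nor did 9 other settings (limma adjusted p up to 0.148) or either wash batch alone. The difference between the WT and *Pxr*-/- changes was 0.66, with an interval of -0.006 to 1.33.

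*Abcg2* encodes BCRP, the other main apical drug pump (probe at chr6:58642312-58642371). It read 15.10 ± 0.21 in WT PCN (SD, n = 5) and 15.27 ± 0.18 in WT CONT (SD, n = 6), a difference of -0.17 with an interval of -0.39 to 0.05. In *Pxr*-/- mice it was 14.94 ± 0.09 with PCN and 15.34 ± 0.19 without (SD, n = 6 each), and 5 of the 6 PCN values lay below all controls. The difference of -0.40 (SE 0.10, limma adjusted p = 0.0272) was 1.32-fold, under the limit of 1.5-fold, and so was not called.

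The other MRP genes gave no calls. *Abcc3*, which encodes MRP3, an exporter of bile acids and glucuronides, read 12.27 to 12.99 in WT PCN and 12.10 to 12.93 in WT CONT. It read 11.87 to 12.80 in *Pxr*-/- mice with PCN, against 12.75 to 13.01 without it. The differences were 0.22 (interval -0.10 to 0.53) and -0.38 (interval -0.68 to -0.08, limma adjusted p = 0.142), and the difference between them was 0.60 (interval 0.16 to 1.03, limma adjusted p = 0.878). The dimmer *Abcc3* probe gave 0.37 and -0.42, with overlapping groups in both genotypes. *Abcc1*, which encodes the broadly expressed MRP1, differed by 0.08 (interval -0.20 to 0.37) in WT and by -0.02 (-0.29 to 0.26) in *Pxr*-/- mice. Its second probe, annotated to no RefSeq mRNA, differed by 0.08 and -0.03, and had Pearson's r = -0.09 with the first over all arrays. *Abcc4*, which encodes MRP4, an exporter of cyclic nucleotides and bile acids, differed by -0.06 (-0.29 to 0.17) and 0.20 (-0.02 to 0.41).

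In WT mice 4 of the 8 transporters thus rose with PCN, against 0.933% of the 17574 genes tested. The groups did not overlap for the same 4, against 1.94% of all genes in that direction. In *Pxr*-/- mice 3 of 8 rose, against 1.21% of all genes, and the groups of the same 3 did not overlap, against 2.25% of all genes. Without *Abcb1b* and *Abcb4* the counts were 2 and 1 of 6. With the second *Abcb1a* probe, annotated to other transcripts, in place of the brightest, they were 2 and 0 of 6. The median log2 change of the 8 genes was 0.79 in WT and 0.45 in *Pxr*-/- mice (0.15 and 0.09 without *Abcb1b* and *Abcb4*), against -0.02 and 0.0009 over all genes. The difference between both changes was called for 0 of 8 transporters, against 0.119% of all genes. An unadjusted limma p under 0.05 was seen for 2 of 8 (*Abcb1b* and *Abcc3*, both positive). The second *Abcb1a* probe (limma unadjusted p = 0.0127) and the dimmer *Abcc3* probe (limma unadjusted p = 0.00842) passed that limit too, both positive. Of 35 other ABC genes tested, 2 had such a p with a positive and 2 with a negative difference. The share of all genes at that limit was not computed, so nothing is concluded from these counts. For the 4 transporters called in WT the difference between both changes was 0.41 to 0.66, with intervals that together span -0.12 to 1.33. A smaller response without PXR was therefore not separated from an equal one by this test after adjustment.

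**Figure D3:**
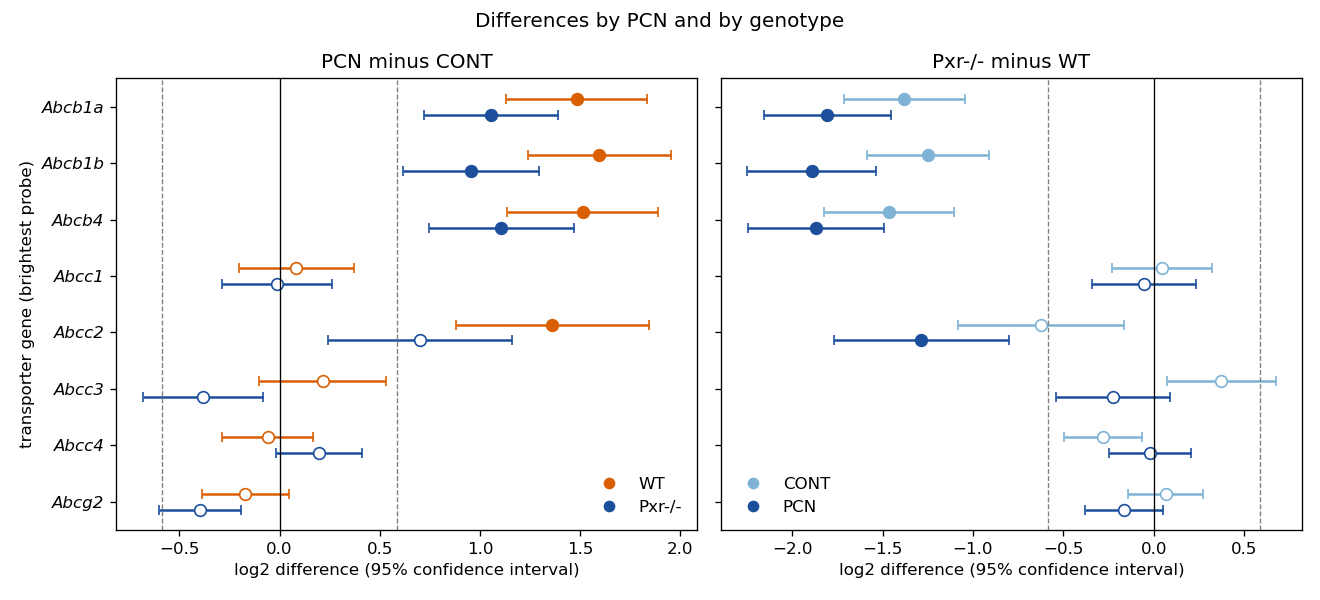
Log2 differences (x axes, with 95% confidence intervals) of the brightest probe of each transporter (y axis): left, PCN minus CONT in WT and *Pxr*-/- mice, and right, *Pxr*-/- minus WT mice without and with PCN. Filled points passed adjusted p and fold limits and dashed lines mark 1.5-fold; the filled points belong to *Abcb1a*, *Abcb1b*, *Abcb4* and, for PCN in WT and for genotype with PCN, *Abcc2*.

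Without PCN, P-glycoprotein transcripts were lower in *Pxr*-/- than in WT mice by the brightest probes. All 6 *Pxr*-/- CONT values of the brightest *Abcb1a* probe (12.72 to 13.50) lay below all 6 WT CONT values (14.09 to 14.93). *Abcb1a* was lower by 1.38 (log2 difference -1.38, SE 0.16, limma adjusted p = 9.81e-05), *Abcb1b* differed by -1.25 (SE 0.16, limma adjusted p = 0.000348) and *Abcb4* by -1.46 (SE 0.17, limma adjusted p = 0.000112). The second *Abcb1a* probe differed by -0.50 (SE 0.14, limma adjusted p = 0.163) and was not called. *Abcc2* differed by -0.63 (limma adjusted p = 0.335), with 5 of 6 *Pxr*-/- CONT values below all WT CONT values. The remaining transporters differed by -0.28 (*Abcc4*) to 0.37 (*Abcc3*), and none was called. In all 3 of 8 transporters were lower, against 0.171% of all genes, and the same 3 did not overlap, against 0.814%. Without *Abcb1b* and *Abcb4* it was 1 of 6, and with the second *Abcb1a* probe 0 of 6.

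With PCN in both genotypes, P-glycoprotein transcripts and *Abcc2* were lower in *Pxr*-/- than in WT mice by the brightest probes. All 6 *Pxr*-/- PCN values of the brightest *Abcb1a* probe (13.62 to 14.23) lay below all 5 WT PCN values (15.41 to 16.12). The brightest *Abcb1a* probe differed by -1.81 (SE 0.17, limma adjusted p = 7.30e-07) between *Pxr*-/- PCN and WT PCN, *Abcb1b* by -1.89 (SE 0.17, limma adjusted p = 4.73e-07), *Abcb4* by -1.87 (SE 0.18, limma adjusted p = 1.35e-06) and *Abcc2* by -1.29 (SE 0.23, limma adjusted p = 0.00560). The second *Abcb1a* probe passed as well, at -1.06 (SE 0.15, limma adjusted p = 0.000271). These 4 of 8 transporters were lower in *Pxr*-/- mice, against 0.467% of all genes, and their groups did not overlap, against 1.01%. Without *Abcb1b* and *Abcb4*, 2 of 6 were lower with either *Abcb1a* probe. The median genotype difference of the 8 transporters was -0.45 without and -0.76 with PCN, against -0.005 and 0.01 over all genes. *Abcc1*, *Abcc3*, *Abcc4* and *Abcg2* differed by -0.22 to -0.02 and were not called.

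The order of the 4 groups was the same for *Abcb1a*, *Abcb1b* and *Abcb4*. WT PCN was highest, WT CONT and *Pxr*-/- PCN followed with means 0.30 to 0.36 apart and overlapping ranges, and *Pxr*-/- CONT was lowest. For *Abcc2* and the second *Abcb1a* probe, *Pxr*-/- PCN came before WT CONT by 0.07 and 0.08, again with overlap. *Abcc1*, *Abcc3*, *Abcc4* and *Abcg2* showed no pair of neighbouring groups whose ranges were apart.

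The arrays were washed in 2 batches, which each held all 4 groups. Batch correction is described for the liver arrays of the study and not for these ileum arrays. In the deposited table the fitted batch term had a median size of 0.0058 over probes (log2), against 0.060 in quantile-normalized spot signals of the same probes. Within 1 batch alone the changes of *Abcb1a*, *Abcb1b*, *Abcb4* and *Abcc2* with PCN were 1.25 to 1.92 in WT and 0.35 to 1.27 in *Pxr*-/- mice. For *Abcb1a* they were 1.76 and 1.25 in WT and 0.84 and 1.27 in *Pxr*-/- mice, in batches 1 and 2. The genotype differences were -1.66 to -0.40 without PCN and -2.12 to -1.21 with it. The difference of the PCN changes between genotypes was 0.91 in batch 1 and -0.016 in batch 2 for *Abcb1a*, so its direction was not kept. With 2 or 3 mice per group and batch, 13 of these 32 within-batch PCN and genotype values passed the threshold and 19 did not.

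*Abcb1a*, *Abcb1b* and *Abcb4* follow each other along chromosome 5 in the RefSeq gene order (GRCm38.p6), and their neighbours were looked up after the values of the members were known. *Rundc3b*, whose annotated span overlaps the start of *Abcb1a*, rose by 0.79 (SE 0.14, limma adjusted p = 0.00331) in WT mice. In *Pxr*-/- mice it differed by 0.56 (SE 0.13, limma adjusted p = 0.0225), under the fold limit. *Rundc3b* was also lower in *Pxr*-/- PCN than in WT PCN (-0.75, limma adjusted p = 0.00816), and it differed by -0.52 (limma adjusted p = 0.125) without PCN. On the other side, *Crot* differed by 0.32 and 0.36 (limma adjusted p = 0.370 and 0.139). The next genes out, *Slc25a40* and *Tmem243*, differed by -0.02 to 0.11 and were not called.

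**Figure D4:**
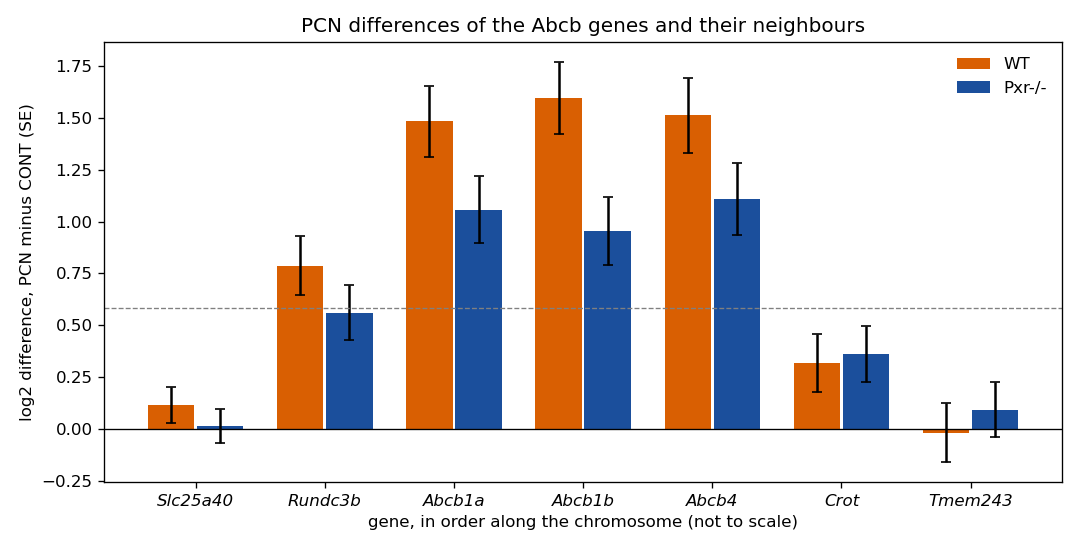
Log2 difference between PCN and CONT (y axis, bars from 0, whiskers SE) in WT and *Pxr*-/- mice for the 3 *Abcb* genes and 2 genes on each side, in chromosome order and not to scale; the dashed line marks 1.5-fold. The bars are highest over *Abcb1a*, *Abcb1b* and *Abcb4* (0.95 to 1.60), lower over *Rundc3b* (0.56 and 0.79) and *Crot* (0.32 and 0.36), and run from -0.02 to 0.11 over the outermost genes.

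Of the 8 genes, 6 had 9 promoter entries in the RefSeq promoter table (GRCm38.p6), none of them of *Abcc1* or *Abcc3*. The 250 bases before the start of the genes that rose in WT mice are shown. Capitals mark, on either strand, the nuclear receptor motifs AGGTCA and AGTTCA, the dioxin-response core GCGTG and the antioxidant-response core TGACNNNGC.
Abcb1a (chr5:8566841-8567090, plus strand): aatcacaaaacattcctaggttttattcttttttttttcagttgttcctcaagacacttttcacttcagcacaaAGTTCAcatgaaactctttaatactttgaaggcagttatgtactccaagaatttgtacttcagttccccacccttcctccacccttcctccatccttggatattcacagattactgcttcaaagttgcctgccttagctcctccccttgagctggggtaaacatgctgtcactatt
Abcb1b (chr5:8797897-8798146, plus strand): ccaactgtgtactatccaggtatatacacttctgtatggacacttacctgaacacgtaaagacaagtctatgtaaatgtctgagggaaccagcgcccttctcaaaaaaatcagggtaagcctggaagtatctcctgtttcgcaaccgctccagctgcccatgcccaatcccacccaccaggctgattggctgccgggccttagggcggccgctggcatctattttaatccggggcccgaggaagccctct
Abcb4 (chr5:8893471-8893720, plus strand): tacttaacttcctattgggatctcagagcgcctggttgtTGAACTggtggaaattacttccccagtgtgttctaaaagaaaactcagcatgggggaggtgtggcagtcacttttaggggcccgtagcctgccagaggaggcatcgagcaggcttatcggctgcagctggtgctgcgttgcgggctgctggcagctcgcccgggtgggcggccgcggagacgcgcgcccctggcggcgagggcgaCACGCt
Abcc2 (chr19:43782058-43782307, plus strand): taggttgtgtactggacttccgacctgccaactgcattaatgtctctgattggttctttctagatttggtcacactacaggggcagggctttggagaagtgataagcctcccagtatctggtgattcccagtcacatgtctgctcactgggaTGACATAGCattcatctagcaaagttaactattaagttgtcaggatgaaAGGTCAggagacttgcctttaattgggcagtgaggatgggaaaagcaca

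*Abcb1a* and *Abcb4* each held a single AGTTCA motif, *Abcc2* an AGGTCA motif and an antioxidant-response core, *Abcb4* a dioxin-response core, and *Abcb1b* none of these letters. Among all 32851 promoter windows of 250 bases, AGGTCA was present in 14.0%, AGTTCA in 11.8%, GCGTG in 28.2% and TGACNNNGC in 10.2%. Pairs of AGGTCA or AGTTCA, as direct repeats spaced by 3 or 4 bases or everted repeats spaced by 6 or 8 bases, were in none of the 9 windows of the transporters and in 0.00913% to 0.0244% of all windows. Only these exact letters were searched. Pairs this rare would be missing from most sets of 9 windows, so their absence here decides nothing. Sites outside these windows were not searched. Whether the transcripts of the ileum begin at these annotated starts, that of *Abcb1a* included, was not tested.

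Outside the 8 transporters, 35 of 42 other ABC genes were tested. *Abca1*, the cholesterol and phospholipid exporter, was the single one called for PCN and rose by 0.85 (SE 0.13, limma adjusted p = 0.000679) in WT mice. It differed by 0.49 in *Pxr*-/- mice (limma adjusted p = 0.0289), under the fold limit. Other called ABC genes, named after their values were seen, were *Abcg5* (-0.92), *Abca1* (-0.77) and *Abca8b* (0.75) between *Pxr*-/- PCN and WT PCN, and *Abca8b* for the difference of the PCN changes (-1.04). The median change of the 35 genes with PCN was 0.002 in WT and 0.07 in *Pxr*-/- mice. Of 22 uptake and exchange carriers of the SLC families, which work alongside the pumps, 20 were tested and 0 were called by limma in any comparison. Between 2 and 4 of them per comparison had an unadjusted p under 0.05, and their changes with PCN ran from -0.46 to 0.49 in WT and from -1.21 to 0.54 in *Pxr*-/- mice.

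None of 11 receptors and partners that are known to act on such genes, among them *Nr1i3*, *Nr1h4*, *Ahr* and *Nfe2l2*, was called by limma in any comparison. Between 1 and 4 of them per comparison had an unadjusted p under 0.05. Of 6 targets of NRF2, the factor that binds antioxidant-response cores, only *Hmox1* was called for PCN (named after its values were seen). It rose by 1.27 (SE 0.28, limma adjusted p = 0.0154) in *Pxr*-/- mice and differed by 1.14 (limma adjusted p = 0.0565) in WT mice.

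Genes whose pattern over the 23 arrays was most like that of a transporter were named by Pearson's r, as a description. For *Abcb1a* they were *Abcb4* (0.998), *Abcb1b* (0.995) and *Ttc39c* (0.949), and 21 genes exceeded 0.9. For *Abcb1b*, *Defb39* (0.948) came after the other two *Abcb* genes. For *Abcc2* they were *Gm10768* (0.959), *Ttc39c* (0.925) and *Il15* (0.918), and 5 genes exceeded 0.9. No gene exceeded 0.9 for *Abcc1*, *Abcc3*, *Abcc4* or *Abcg2*, whose closest were *Rabl6* (0.840), *Tnfsfm13* (0.829), *Zfp280c* (0.823) and *Nol4l* (0.810).

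The labelled tissue was checked against enterocyte markers, of which 8 of 8 were tested. Their summed level was 18.29 to 18.96 (log2) in WT CONT, 18.73 to 18.98 in WT PCN, 18.52 to 18.86 in *Pxr*-/- CONT and 18.69 to 18.93 in *Pxr*-/- PCN. That of 4 ileal enterocyte markers was 19.02 to 19.30 in WT CONT and 18.86 to 19.21 in WT PCN. In *Pxr*-/- mice the ileal sum was 19.06 to 19.39 without PCN and 18.93 to 19.20 with it. The sum of 8 B cell markers was 10.85 to 11.27 in WT CONT, 11.16 to 13.78 in WT PCN, 10.78 to 11.30 in *Pxr*-/- CONT and 10.90 to 12.32 in *Pxr*-/- PCN. That of 4 mesothelial markers was 10.67 to 11.59 in WT CONT, 11.57 to 12.17 in WT PCN, 10.89 to 11.53 in *Pxr*-/- CONT and 11.14 to 12.32 in *Pxr*-/- PCN. Smooth muscle markers, 6 of 6 tested, summed to 17.39 to 17.60, 17.51 to 18.08, 17.33 to 17.96 and 17.73 to 18.45, in the order WT CONT, WT PCN, *Pxr*-/- CONT and *Pxr*-/- PCN. Fibroblast markers, 6 of 6 tested, summed in that order to 15.42 to 15.77, 15.30 to 16.49, 15.05 to 15.88 and 15.74 to 16.57, and 6 macrophage markers to 13.32 to 13.54, 13.45 to 13.80, 13.10 to 13.60 and 13.53 to 13.80. Of the B cell markers 0 were called by limma with PCN, while 6 in WT and 1 in *Pxr*-/- mice had an unadjusted p under 0.05. With PCN, 1 of 6 fibroblast markers rose in WT and 3 of 6 in *Pxr*-/- mice. The counts were 2 and 2 of 6 for neutrophil, 1 and 1 of 4 for mesothelial, 0 and 2 of 6 for smooth muscle and 0 and 1 of 6 for macrophage markers. At an unadjusted limma p under 0.05, 4 smooth muscle, 2 macrophage and 1 fibroblast markers were higher with PCN in WT mice. In *Pxr*-/- mice these counts were 4, 5 and 5. T cell markers lower with PCN at that limit were 0 of 6 in WT and 3 of 6 in *Pxr*-/- mice. The summed level of the neutrophil markers was 15.22 to 15.61 in WT CONT, 15.32 to 15.69 in WT PCN, 15.16 to 15.63 in *Pxr*-/- CONT and 15.39 to 15.58 in *Pxr*-/- PCN. The sum of 6 T cell markers was 12.93 to 13.30 in *Pxr*-/- CONT and 12.65 to 12.88 in WT CONT, with 1 of 6 called as higher. With PCN this sum was 12.37 to 13.17 in *Pxr*-/- and 12.55 to 12.90 in WT mice. Each of these markers was well above background on all 23 arrays, apart from *Lct* (22 arrays), *Fcer2a* (17 arrays) and the neutrophil markers *S100a8* (22 arrays), *Mpo* (13 arrays) and *Cxcr2* (10 arrays). The part of other cell types in the transporter differences was not tested.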

How the data were processed

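Ileum RNA of 23 male mice (150 ng each, Cy3, 1 array per mouse) was read on single-colour Agilent arrays of 60-base probes. The deposited scanner files hold spot intensity and flags from Agilent Feature Extraction 10.10.1.1. For the liver arrays of the study, the authors filtered the median signals, took log2, corrected for the washing batch and applied CrossNorm. Whether the same was done for these ileum arrays is not given in the sources used here. The deposited log2 table holds 37161 probes, every column has the same median of 8.02, and 0 columns were unused. The filter rule is not given in the sources used here. Depth has no counterpart on arrays, so their number limits the precision.

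Here limma 3.58.1 (R 4.3.3) fitted group and wash batch to the log2 table over all probes and arrays, with 5 contrasts (PCN in each genotype, the difference of both, and genotype without and with PCN) and Benjamini-Hochberg adjustment over all probes. Calls needed an adjusted p no higher than 0.05 together with a fold over 1.5, as in the study. Gene names were those of the scanner files for the 8 transporters and RefSeq symbols, matched by accession or name, otherwise. The fit was first tested on simulated data. Named genes were all 8 members, other ABC genes and SLC carriers called for PCN, *Nr1i2*, *Cyp3a11* and, of the 3 genes most alike each member, those closest to it. The members and lists were chosen with earlier results of these data known. Alternatives were other signals and normalizations of the scanner files, slide terms, filters, single batches and leaving out each array. Arrays are 1 per mouse, so p-values measure the spread between mice.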

Additional observations from a re-analysis of the deposited data

Results flagged for a closer look

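Of 44 combinations of probe and group, 5 held an array far from the rest of its group by Dixon's test, where chance gives about 1 in 20. WT CONT replicate 2 was high for the brightest probes of *Abcb1a* (14.93, next 14.28), *Abcb1b* (11.91, next 11.25) and *Abcb4* (13.93, next 13.37), which follow each other array by array. *Pxr*-/- CONT replicate 4 was high for *Abcc2* (10.67, next 9.70) and for the brightest *Abcc3* probe (13.01, next 12.83).

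The dimmer *Abcc3* probe was above the control mean in 5 of 5 WT PCN mice and below it in 6 of 6 *Pxr*-/- PCN mice. The changes differed by 0.80 (interval 0.23 to 1.37), which did not pass the threshold (limma adjusted p = 0.837).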

How the results depend on the processing

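None of the 14 calls of a transporter in a comparison changed direction under any alternative. The number of transporters called was within 1.5 times that of the analysis above under the other normalizations, filters and slide terms. With the replicate number as a block it was 4, 3, 0, 3 and 4 (PCN in WT, PCN in *Pxr*-/-, their difference, genotype without and with PCN), but the numbers did not pair the mice: over 22 pairs the correlation of deviations was -0.21 to 0.43, and 4 exceeded 0.1. Leaving out 1 array gave 3 to 4 for PCN in *Pxr*-/- mice. Wash batch 1 alone gave 0 for PCN in *Pxr*-/- mice and 0 for genotype without PCN, and wash batch 2 alone gave 0 for PCN in WT, where fewer mice were fitted. Without *Abcb1b* and *Abcb4*, an alternative chosen after seeing the data, the counts were 2, 1, 1 and 2 (difference left out), and with the second *Abcb1a* probe as well 2, 0, 0 and 2.

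Directions changed in values that were not called, and the cause was not tested. With the slide as a fixed term *Abcc4* differed by 0.0011 between *Pxr*-/- PCN and WT PCN. In wash batch 1 alone these were *Abcg2* for PCN in WT (0.073) and *Abcc1* for genotype without PCN (-0.15). In wash batch 2 alone they were *Abcc3* for PCN in WT (-0.0041), *Abcg2* for genotype without PCN (-0.028), *Abcc1* (0.039) and *Abcc4* (0.047) for genotype with PCN, and the difference of the PCN changes of *Abcb1a* (-0.016) and *Abcg2* (-0.0078). Leaving out 1 array in turn gave ranges on both sides of 0 for *Abcc1* (PCN in *Pxr*-/- -0.11 to 0.034, genotype without PCN -0.0045 to 0.14, genotype with PCN -0.16 to 0.011) and *Abcc4* (genotype with PCN -0.067 to 0.023).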
